A study of Mus musculus with 4 samples.

Results

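The CHD proteins are chromatin remodellers, and the 9 genes described here are Chd1, Chd2, Chd3, Chd4, Chd6, Chd7, Chd8, Chd9 and the related Chd1l. They were picked by gene symbol from the 32285 genes of the matrices, and all 9 were present. Their transcripts were counted as unique molecular identifiers (UMIs) in single cells of 4 mouse prostate tumours, summed per mouse and cell class. PSp mice carried PB-Cre, SpopF133V and the mTmG reporter on a shared background (2 mice), and PCSp mice carried the same alleles plus Chd1L/L (2 mice). PB-Cre uses the probasin promoter, which is active in prostate epithelium, L/L marks an allele flanked by lox sites, and SpopF133V is a mutant form of the ubiquitin ligase adaptor SPOP. Both groups therefore shared every allele but that of Chd1, and no mouse without the shared alleles was compared. Castration was done at an age of 9 months, and the whole prostate tumour was taken 1 month after it. The labels describe the cells as epithelial, stromal and immune, and the comparison asks what Chd1 does in tumours with mutant Spop.

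CHD remodellers use ATP to slide, space or evict nucleosomes, and most carry paired chromodomains that read histone tails. CHD1 binds nucleosomes with trimethylated H3K4 at active genes and works beside elongating RNA polymerase II, and CHD2 is its closest relative. CHD3 and CHD4 are the ATPases of the NuRD complex, which joins remodelling to histone deacetylation. CHD6, CHD7, CHD8 and CHD9 form a further subfamily, and CHD1L, also called ALC1, is recruited to DNA damage by poly(ADP-ribose) and lacks chromodomains. CHD1 is recurrently deleted in human prostate cancer, often together with SPOP mutation.

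The motor of these proteins holds a DEAH box, a stretch of the ATPase that binds magnesium and ATP. It is shown because it marks the family and because Chd2 stands nearest to Chd1 in it. Each line gives 36 bases of coding sequence, 5′ to 3′ on the coding strand, with the 4 codons of the box in capitals, from GENCODE M21 transcripts (GRCm38, the mm10 build).
Chd1: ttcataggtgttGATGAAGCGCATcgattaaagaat
Chd2: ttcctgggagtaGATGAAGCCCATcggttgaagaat
Chd3: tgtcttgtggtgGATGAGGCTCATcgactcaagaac
Chd4: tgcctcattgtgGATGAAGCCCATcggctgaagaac
Chd6: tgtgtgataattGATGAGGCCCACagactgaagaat
Chd7: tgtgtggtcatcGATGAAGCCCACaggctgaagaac
Chd8: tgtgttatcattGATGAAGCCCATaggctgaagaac
Chd9: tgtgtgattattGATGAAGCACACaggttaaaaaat
Chd1l: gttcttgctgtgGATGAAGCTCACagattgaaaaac
Of these 36 bases, Chd2 shared 29 with Chd1, Chd4 shared 25, and the other 6 members shared between 21 and 24. In Chd1 the stretch lies in exon 14 of 36 of transcript Chd1-201, on the plus strand at chr17:15738509-15738544, within the gene at chr17:15704967-15772610. On the plus strand lie also those of Chd4 in exon 17 at chr6:125108749-125108784, Chd7 in exon 13 at chr4:8828331-8828366 and Chd9 in exon 14 at chr8:90994559-90994594. On the minus strand lie those of Chd2 in exon 16 at chr7:73490607-73490642, Chd3 in exon 16 at chr11:69356950-69356985, Chd6 in exon 13 at chr2:161018068-161018103, Chd8 in exon 13 at chr14:52219639-52219674 and Chd1l in exon 6 at chr3:97597725-97597760. From the box of Chd1 to the end of transcript Chd1-201 there are 5578 bases. The libraries are 3' tag libraries, so the counted UMIs come mostly from that far end. Which exons the Chd1L/L allele removes is not given in the labels, and a transcript that has lost an internal exon can still be counted. The Chd1 level therefore does not measure how complete the deletion was.

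After the filters 26431 cells were left, 5154 and 5850 from PSp mice against 7615 and 7812 from PCSp mice. Library totals ran from 66874620 to 90839725 UMIs, and any 2 libraries had 11 to 27 cell barcodes in common. Cells were grouped by marker genes, so a name such as epithelial means epithelial-like. The CHD members were left out of the genes used for clustering. The epithelial class held 12468 cells, and endothelial, fibroblast, macrophage and monocyte, neutrophil, and T and NK (T/NK) classes each had at least 50 cells in every mouse. Levels are given as CPM, the UMIs of a gene in a class and mouse scaled to a total of 1000000. The 14 epithelial markers summed to 13276 and 15571 CPM in the PSp epithelium and 14731 and 14821 in the PCSp epithelium. Cells named basal-like numbered 585 to 1099 per mouse, whereas those named luminal-like numbered 1 to 23, and most epithelial cells took no subclass name.  With 2 mice against 2, the smallest exact two-sided permutation p is 0.333, so the tests are those of edgeR's quasi-likelihood model over all genes, with Benjamini-Hochberg adjustment and a threshold of 0.05. The p-values of the genotype tests within a class measure the spread between these mice only. Those of the contrasts between classes hold the mouse as a block. They measure the spread left among the class sums of these same mice.

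Chd1 was the member with the lowest PCSp to PSp ratio in the epithelium, and in each of the other 5 classes tested its PCSp mean was higher, without passing. Its epithelial level was 91.2 and 77.9 CPM in PSp mice, against 59.7 and 56.1 CPM in PCSp mice. The genotypes did not overlap, as was so in either direction for 39.6% of all genes tested, and the PCSp mean was 68.5% of the PSp mean. The log2 fold change was -0.56 ± 0.096 (SE, n = 2 mice per group), with an unadjusted edgeR p of 0.00197 and an edgeR adjusted p of 0.405, so Chd1 did not pass. Among 16430 genes tested in the epithelium edgeR called 0 (0%), while 1261 had an unadjusted p under 0.05. DESeq2 called 189 genes, Chd1 among them, with a log2 fold change of -0.57 and a DESeq2 adjusted p of 0.00243. In the basal-like cells, where edgeR called 27 of 13641 genes (0.198%), the Chd1 log2 fold change was -0.55 ± 0.11 (SE) with an edgeR adjusted p of 0.154.

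Depth and the RNA of other classes also differed by genotype in the epithelium. The median epithelial cell held 11045 and 14064 UMIs in PSp mice, against 9855 and 7926 in PCSp mice. With every cell above 3000 UMIs thinned to 3000 and shallower cells left as they were, the Chd1 log2 fold change was -0.39. Over cells with at least 3000 UMIs, unthinned, it was -0.57. The 10 fibroblast markers, none at 0, summed to 308 and 243 CPM in the PSp epithelium and to 492 and 413 CPM in the PCSp epithelium. The 12 macrophage and monocyte markers, none at 0, summed to 1046 and 731 CPM against 1253 and 1125 CPM. Bounds were taken from the marker levels of each of the other 5 tested classes. By these, RNA of any 1 of them could supply at most 1.42% and 1.08% of the Chd1 level in the PSp epithelium. In the PCSp epithelium these bounds were 4.82% and 7.89%. The PSp bounds came from macrophages and monocytes, and the PCSp bounds from T/NK cells. In the epithelium the 12 T/NK markers summed to 40.4 and 27.6 CPM in PSp mice and to 26.3 and 36.7 CPM in PCSp mice. These T/NK sums overlapped between the genotypes. Classes with fewer cells were not taken as sources. The 9 B and plasma cell markers summed to 4.59 and 2.22 CPM in the PSp epithelium and to 8.77 and 37.0 CPM in the PCSp epithelium.

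**Figure D1:**
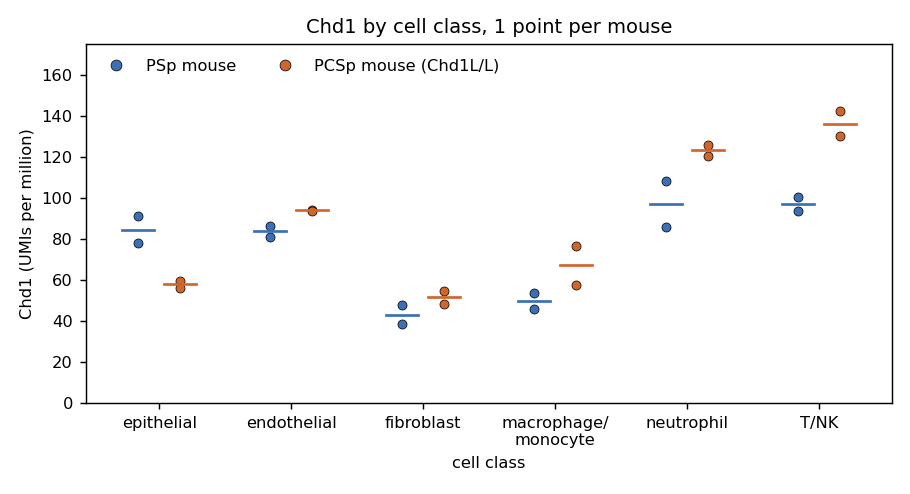
Chd1 level in CPM (y axis) in each of 6 cell classes (x axis), with 1 point per mouse and a bar at the mean of the 2 mice of a genotype. The PCSp points lie below the PSp points in the epithelium, at 59.7 and 56.1 against 91.2 and 77.9, and above them in the other 5 classes.

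In the other 5 tested classes the estimates had the opposite sign. T/NK cells had 100.6 and 93.4 CPM of Chd1 in PSp mice, against 142 and 130.2 CPM in PCSp mice. This was the difference nearest to the threshold among those 5 classes, with a log2 fold change of 0.45 ± 0.13 (SE) and an edgeR adjusted p of 0.226. In neutrophils the levels were 85.8 and 108 CPM against 126 and 121 CPM. Macrophages and monocytes had 53.6 and 45.8 CPM against 57.8 and 76.6 CPM. The other 2 classes differed less. Fibroblasts had 47.8 and 38.5 CPM against 48.5 and 54.9 CPM, and endothelial cells 86.5 and 81.1 CPM against 94.3 and 93.8 CPM. The log2 fold changes were 0.29 in neutrophils, 0.40 in macrophages and monocytes, 0.24 in fibroblasts and 0.15 in endothelial cells, and none passed.

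In all 5 classes the PCSp pair lay above the PSp pair for Chd1. The same order held for 18.7% of tested genes in endothelial cells, 17.7% in fibroblasts, 22.3% in macrophages and monocytes, 23.9% in neutrophils and 23.9% in T/NK cells. EdgeR called few genes by genotype in these classes: 0.0435% in endothelial cells, 0% in fibroblasts, 0.0698% in macrophages and monocytes, 0.0886% in neutrophils and 0.487% in T/NK cells. No CHD member was among them, nor among the calls of DESeq2 in these classes. At an unadjusted edgeR p under 0.05 stood Chd4 in endothelial cells, Chd1 in macrophages and monocytes, and Chd1 and Chd3 in T/NK cells, where 6.31%, 6% and 8.51% of genes did. Summed epithelial markers were higher in PCSp mice without overlap in neutrophils (629 and 806 CPM in PSp mice against 967 and 935 CPM). The same held in endothelial cells (339 and 380 CPM against 642 and 442 CPM). In fibroblasts, macrophages and monocytes, and T/NK cells the genotypes overlapped. T/NK cells, for example, had 445 and 528 CPM against 596 and 520 CPM. The part of these markers in the Chd1 values was not tested.

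The genotype difference of Chd1 in the epithelium differed from that in the other classes. In a model of all 6 classes with mouse as a block, epithelium minus the mean of the other 5 gave -0.89 ± 0.15 (SE) on the log2 scale, with an edgeR adjusted p of 0.0111. Only 4 of 14608 genes (0.0274%) passed this contrast. The other 3 were Ifi27l2a, Ifi207 and Mfge8, named after their values were seen, and each was also more negative in the epithelium. Ifi27l2a and Ifi207 are interferon-induced genes, and Mfge8 encodes a secreted protein that bridges dying cells to phagocytes. Against single classes the Chd1 contrast ran from -0.71 against endothelial cells to -1.04 against T/NK cells, with edgeR adjusted p from 0.0521 to 0.442, and none passed. The call against the mean was lost without PCSp mouse 1 (-0.96, edgeR adjusted p 0.211), without PCSp mouse 2 (-0.82, edgeR adjusted p 0.539) and with doublets kept (-0.81, edgeR adjusted p 0.101).

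Within the epithelium the lower Chd1 level was spread over sub-clusters of different kinds. Of 15 sub-clusters with at least 20 cells per mouse, the PCSp mean was lower in 14, and the PCSp pair lay below the PSp pair in 10. As many such sub-clusters or more were seen for 0.554% of the 16430 genes. Chd3 was among these, so the pattern was not particular to Chd1. Its PCSp mean was lower in 13 of the 15 sub-clusters, and its PCSp pair lay below the PSp pair in 10. Sub-clusters share their mice, so these counts are not replicates. In the cells led by the proliferation genes Birc5 and Mki67, the Chd1 level was 83.9 and 61.0 CPM in PSp mice, against 37.6 and 42.5 CPM in PCSp mice. Those led by the secreted proteins Reg1 and Ttr had 76.8 and 60.1 CPM against 40.3 and 31.9 CPM. These are the 2 lowest ratios among sub-clusters with a median above 3000 UMIs.

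The largest basal-like sub-cluster, led by Fst and Krt14, had 93.1 and 89.1 CPM of Chd1 in PSp mice, against 71.7 and 63.3 CPM in PCSp mice. Its groups did not overlap. The one exception to the direction was a shallow basal-like sub-cluster led by Col7a1 and Jag2, with 48.3 and 63.4 CPM against 53.1 and 78.8 CPM at a median of 2614 UMIs per cell. Over the 15 sub-clusters the log2 ratio of the means ran from -0.92 to 0.24, with a median of -0.43.

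Chd2, the closest relative of Chd1, had higher PCSp values in the epithelium without passing the test. The level was 73.4 and 69.7 CPM in PSp mice, against 87.4 and 88.8 CPM in PCSp mice, and the log2 fold change was 0.28 ± 0.074 (SE) with an edgeR adjusted p of 0.515. The groups did not overlap, as was so in either direction for 39.6% of all genes tested. In 10 of 15 sub-clusters the PCSp pair lay above the PSp pair, a count whose share over all genes was not taken. The number of Chd2 UMIs per Chd1 UMI was 0.804 and 0.896 in the PSp epithelium and 1.46 and 1.58 in the PCSp epithelium. Neutrophils, with 2.34 and 2.00 against 1.60 and 1.94, and macrophages and monocytes, with 1.53 and 1.66 against 1.498 and 1.19, had lower ratios in PCSp mice, without overlap. In T/NK cells the genotypes overlapped, at 1.85 and 2.28 against 1.52 and 1.97, as they did in fibroblasts (1.23 and 1.49 against 1.25 and 1.08) and endothelial cells (1.04 and 0.882 against 0.893 and 0.857). These ratios are of UMIs and take no account of gene length.

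Chd2 overlaps 1810026B05Rik on the same strand, so strand cannot separate reads from the stretch they share. That gene is the long noncoding RNA also known as Chaserr, which is known to hold down Chd2 expression; it was picked here after its values were seen. Its epithelial level was 40.8 and 43.0 CPM in PSp mice, against 54.2 and 46.3 CPM in PCSp mice. The groups did not overlap, but the log2 fold change of 0.24 had an edgeR adjusted p of 0.663. In T/NK cells it reached 141 to 158 CPM and in neutrophils 101 to 134 CPM, the 2 classes that also had the highest Chd2 levels.

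The NuRD ATPases Chd3 and Chd4 stood on opposite sides. Chd3 was at 143 and 134 CPM in the PSp epithelium and at 128 and 124 CPM in the PCSp epithelium, without overlap. Its log2 fold change was -0.16 ± 0.074 (SE), with an edgeR adjusted p of 0.678. In the other 5 classes the Chd3 estimate was positive, from 0.09 in fibroblasts and in macrophages and monocytes to 0.38 in neutrophils. The epithelium minus the mean of the other classes was -0.43 ± 0.13 (SE) for Chd3, with an unadjusted p of 0.00413 and an edgeR adjusted p of 0.719, and did not pass. Chd4 was at 275 and 249 CPM in the PSp epithelium and at 288 and 300.04 CPM in the PCSp epithelium, a log2 fold change of 0.14 ± 0.084 (SE) with an edgeR adjusted p of 0.705.

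The subfamily of Chd6 to Chd9 split into a pair with higher PCSp values and a pair whose genotypes overlapped. Chd9, known as a coactivator partner of nuclear receptors, was at 192 and 226 CPM in the PSp epithelium and at 274 and 250.4 CPM in the PCSp epithelium. Its groups did not overlap, and the log2 fold change was 0.30 ± 0.12 (SE) with an edgeR adjusted p of 0.648. Leaving out PSp mouse 1, the lower of the PSp pair, brought the log2 fold change to 0.17, and leaving out PSp mouse 2 brought it to 0.45. In all 15 sub-clusters the PCSp pair lay above the PSp pair for Chd9. Of the 16430 genes, 5 (0.0304%) had this order in all 15, among them Wdr89, Gm42031 and Gm43305, named after their values were seen. In the Saa1-led sub-cluster, for example, Chd9 was at 242 and 271 CPM against 354 and 338 CPM. Outside the epithelium the Chd9 log2 fold change was 0.29 in endothelial cells, 0.29 in T/NK cells and 0.25 in neutrophils. It was 0.24 in macrophages and monocytes and -0.01 in fibroblasts, and none passed. The epithelium minus the mean of the other classes was 0.07 ± 0.16 (SE) for Chd9, so the higher level was not particular to the epithelium.

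Chd6, a remodeller that responds to oxidative DNA damage, was at 92.4 and 91.4 CPM in the PSp epithelium and at 112 and 112 CPM in the PCSp epithelium. The spread within each genotype was under 1 CPM, yet the log2 fold change of 0.26 ± 0.073 (SE) had an edgeR adjusted p of 0.535. Chd7, the gene mutated in CHARGE syndrome, was at 45.6 and 46.8 CPM against 46.1 and 44.6 CPM. Chd8, a gene recurrently mutated in autism, was at 48.3 and 47.9 CPM against 48.0 and 49.6 CPM. For both, the groups overlapped, and the log2 fold changes were -0.05 ± 0.075 and 0.00 ± 0.075 (SE). Of these 4 genes, Chd6 and Chd9 thus had PCSp means of 122% and 125% of the PSp means, and Chd7 and Chd8 had 98.3% and 101%.

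Chd1l had the largest positive estimate but few UMIs. It was at 11.1 and 11.2 CPM in the PSp epithelium and at 14.3 and 15.2 CPM in the PCSp epithelium, and the groups did not overlap. The log2 fold change was 0.39 ± 0.097 (SE), with an edgeR adjusted p of 0.511. It rested on 2834 UMIs over all epithelial cells, against 15921 for Chd1 and 61199 for Chd4. In neutrophils, with 31 UMIs in all, Chd1l was not tested.

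Across the 9 members, edgeR called 0 in the epithelium, DESeq2 called 1 (Chd1), and 5 had an unadjusted p under 0.05 (Chd1, Chd2, Chd6, Chd9 and Chd1l). Of all genes in the epithelium, DESeq2 called 1.18%, and 7.67% had an unadjusted edgeR p under 0.05. For 7 members the genotypes did not overlap, Chd1 and Chd3 with lower PCSp values and Chd2, Chd4, Chd6, Chd9 and Chd1l with higher ones. The background for such a lack of overlap in either direction was 39.6% of all genes tested. In the basal-like cells edgeR also called 0 members and DESeq2 called 1, again Chd1 (1.62% of genes). There 7 members had an unadjusted edgeR p under 0.05, as did 12.6% of genes. In the whole epithelium the members' median log2 fold change was 0.14, and that of all genes was -0.0072. Summed over the 8 members other than Chd1, the epithelial level was 881 and 876 CPM in the PSp mice and 998 and 984 CPM in the PCSp mice. With Chd1 included it was 972 and 954 CPM against 1058 and 1041 CPM. Both sums were thus higher in the PCSp mice, with no overlap. This was not particular to the epithelium. With Chd1 included, T/NK cells had 921 and 972.5 CPM against 1125 and 1139 CPM, and endothelial cells 743 and 715 CPM against 832 and 845 CPM. Both sums were also higher without overlap in macrophages and monocytes and in fibroblasts, but overlapped in neutrophils. In the other 5 tested classes the members' median log2 fold change ran from 0.04 in fibroblasts to 0.26 in T/NK cells.

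**Figure D2:**
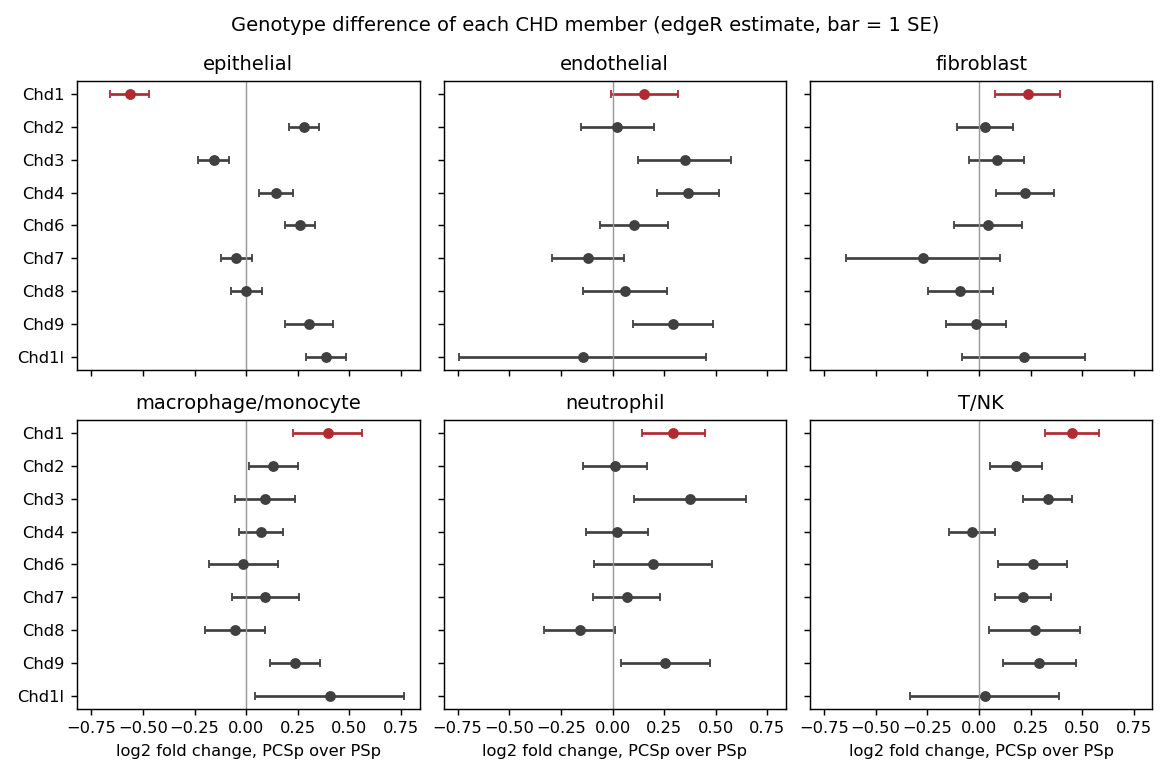
Log2 fold change of each CHD member, PCSp over PSp (x axis), in 6 cell classes, as edgeR estimates with bars of 1 SE and Chd1 in red. Chd1 lies at -0.56 in the epithelium and between 0.15 and 0.45 in the other classes; Chd1l is missing in neutrophils because it was not tested.

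**Figure D3:**
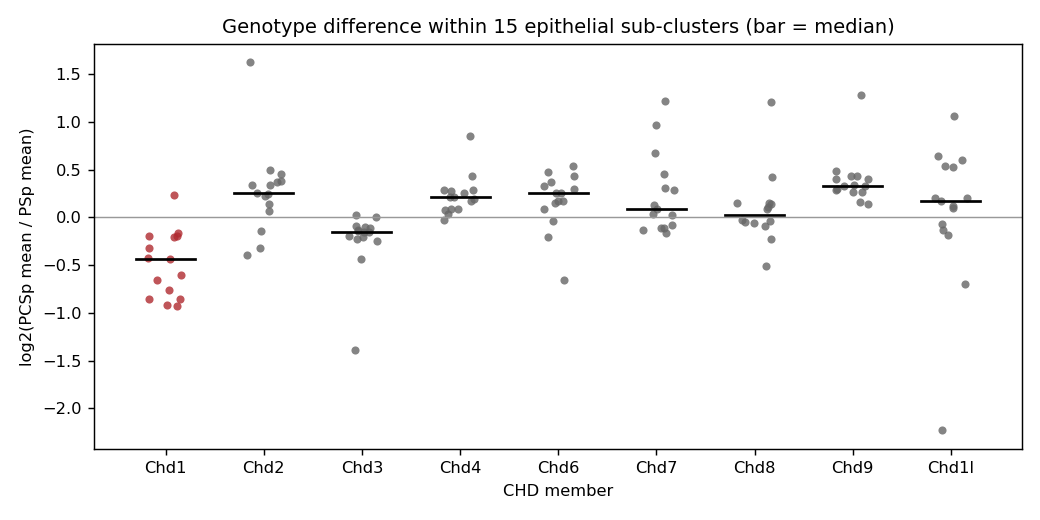
Log2 ratio of the PCSp mean to the PSp mean (y axis) for each CHD member (x axis), with 1 point per epithelial sub-cluster and a bar at the median of 15. Chd1 lies below 0 in 14 sub-clusters and Chd9 above 0 in all 15, and the widest scatter is seen for Chd1l, the member with the fewest UMIs.

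Levels of most members spanned a wide range over the 6 tested classes. Chd7 had the widest range, with 444 and 519 CPM in PSp neutrophils and 473 and 570.1 CPM in PCSp neutrophils. T/NK cells followed with 102 to 139 CPM, then macrophages and monocytes with 82.3 to 113 CPM. Fibroblasts had 3.57 to 5.34 CPM, from 81 UMIs in all, so the mean of the 4 neutrophil samples was 115 times that of fibroblasts. The epithelium, at 44.6 to 46.8 CPM, was among the low classes for Chd7.

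Chd9, Chd6 and Chd3 had the reverse pattern in neutrophils, where each reached its lowest level. By mean CPM, neutrophils were also the lowest class for Chd8 and Chd1l. For Chd8 this depended on the scaling. With TMM scaling in edgeR, Chd8 in fibroblasts minus neutrophils was -0.41 ± 0.12 (SE) on the log2 scale. Chd9 averaged 236 ± 35.1 CPM (SD, n = 4 mice) in the epithelium, 85.1 ± 5.62 in fibroblasts and 28.9 ± 5.81 in neutrophils. Chd6 averaged 102 ± 11.5 CPM in the epithelium, 81.2 ± 9.06 in fibroblasts, 81.1 ± 3.87 in endothelial cells and 9.62 ± 1.31 in neutrophils. Chd3 averaged 163 ± 26.1 CPM in T/NK cells, 132 ± 8.27 in the epithelium and 11.7 ± 2.57 in neutrophils. The lowest epithelial value of Chd9, 192 CPM, lay above its highest in the other 5 tested classes, 92.2 CPM, whereas the epithelial and T/NK levels of Chd3 overlapped.

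Chd2 was highest in T/NK cells (218 ± 28.7 CPM) and neutrophils (213 ± 15.9 CPM), 2 classes whose mice overlapped, and lowest in fibroblasts (59.1 ± 1.43 CPM). By CPM, Chd4 and Chd8 varied least. The highest class mean was 1.32 times the lowest for Chd4, from 278 CPM in the epithelium to 211 CPM in fibroblasts, and 1.76 times the lowest for Chd8. The orders of Chd4 and Chd2 depended on the scaling. With TMM scaling in edgeR, Chd4 in the epithelium minus neutrophils was -0.53 ± 0.079 (SE) on the log2 scale. For Chd4 in fibroblasts minus neutrophils it was -0.96 ± 0.081 (SE). Chd2 in neutrophils minus T/NK cells was 0.58 ± 0.088 (SE). Chd1l was low in all 6 classes, from 2.41 ± 0.58 CPM in neutrophils to 13.9 ± 2.86 CPM in T/NK cells.

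In a model with mouse as a block, edgeR compared the epithelium with the mean of the other 5 classes, a contrast in which 72.5% of 13798 genes passed. Of the 9 members, 7 passed, a share near that background. Higher in the epithelium were Chd9 (1.91 ± 0.069 SE on the log2 scale), Chd3 (1.29), Chd6 (1.12) and Chd1l (0.88). Lower were Chd7 (-0.82), Chd2 (-0.63) and Chd1 (-0.26, edgeR adjusted p 0.0419). Chd4 (0.10) and Chd8 (-0.07) did not pass. The median of all genes in this contrast was 0.16 with TMM scaling and 0.28 with library totals, so values are to be read against that shift. With library totals Chd4 passed (0.23) and Chd1 did not (-0.14), and in the 2 PSp mice alone the Chd1 value was 0.15.

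**Figure D4:**
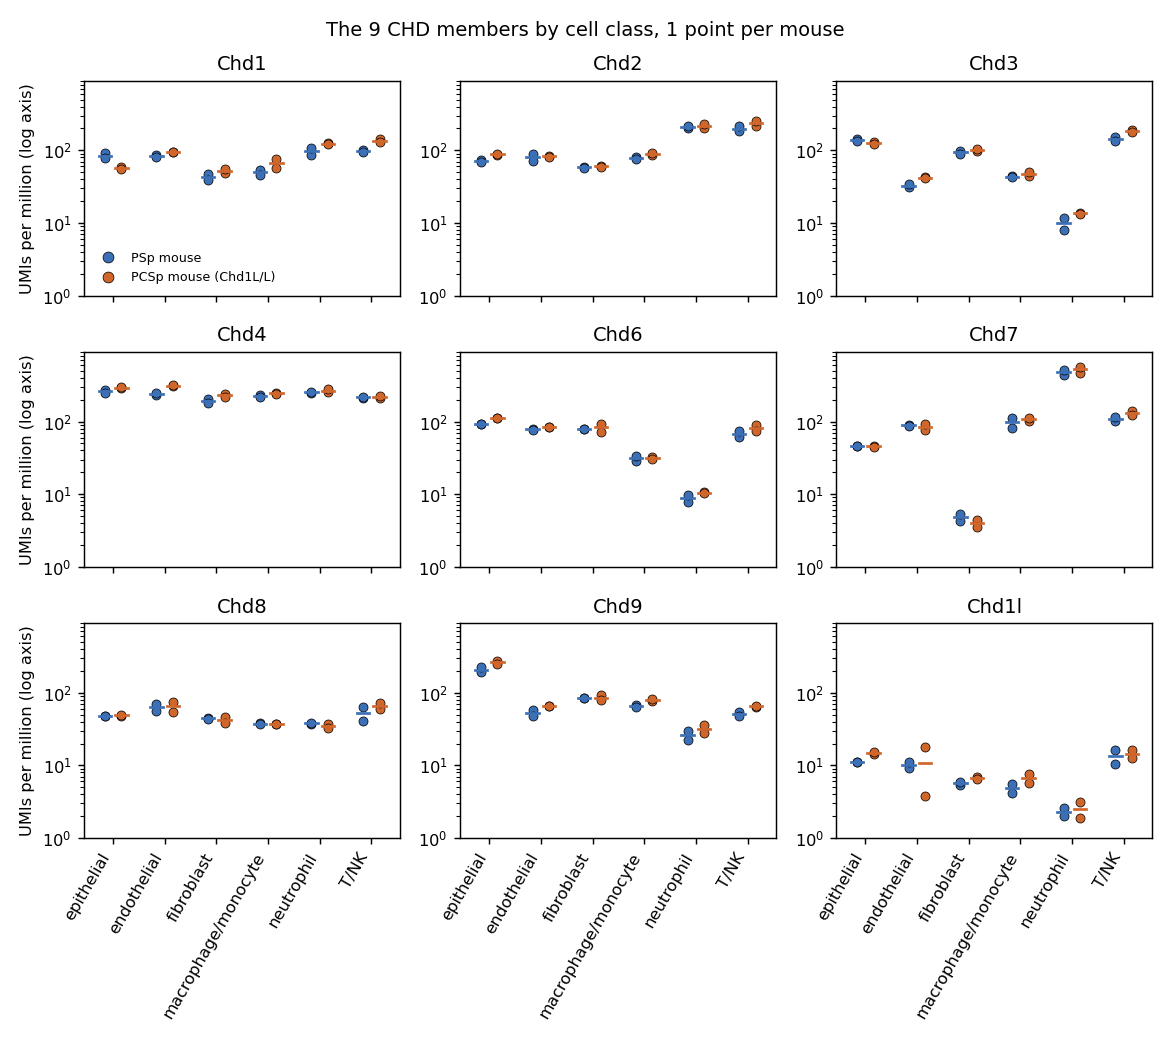
Level of each CHD member in CPM (y axis, log scale) in 6 cell classes (x axis), with 1 point per mouse and a bar at the mean of each genotype. Chd7 runs from 4.37 CPM on average in fibroblasts to 502 CPM in neutrophils, and of these classes Chd9 is highest in the epithelium.

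By mean CPM over the 4 mice, the order for Chd1 was T/NK cells (117 ± 23.3 SD), neutrophils (110.1 ± 17.8), endothelial cells (88.9 ± 6.31), epithelium (71.2 ± 16.4), macrophages and monocytes (58.4 ± 13.1) and fibroblasts (47.4 ± 6.74). With library totals, none of the 5 steps between neighbours passed in edgeR (adjusted p from 0.0813 to 0.664). With TMM scaling, neutrophils stood above T/NK cells, by 0.52 on the log2 scale (edgeR adjusted p 0.00676; 66.2% of genes passed in this contrast). They also stood above endothelial cells, by 1.13 (edgeR adjusted p 1.345e-06; background 73.5%). Macrophages and monocytes stood above fibroblasts by 0.54 (edgeR adjusted p 0.00545; background 70.9%). Endothelial cells against epithelium (0.11, edgeR adjusted p 0.586; background 64.3%) and epithelium against macrophages and monocytes (0.10, edgeR adjusted p 0.577; background 69%) did not pass. The order of T/NK cells and neutrophils thus depended on the scaling. For this pair the median of all genes, neutrophils minus T/NK cells, was 0.24 with TMM and -0.32 with library totals.

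Classes with fewer cells gave counts without a test, and the intervals that follow are exact Poisson intervals at 95% and cover counting error only. B and plasma cells had 38 Chd1 UMIs in the PSp mice together (69.3 CPM, 49.0 to 95.1) and 67 in the PCSp mice (91.9 CPM, 71.2 to 117). Smooth muscle and pericytes had 60 UMIs (82.8 CPM, 63.2 to 107) against 45 UMIs (67.1 CPM, 48.9 to 89.8). Here the PCSp pair (74.2 and 54.3 CPM) lay below the PSp pair (84.2 and 82.1 CPM), as in the epithelium and unlike the other 5 tested classes. Glial cells had 5 UMIs (48.5 CPM, 15.7 to 113) against 15 UMIs (159 CPM, 88.8 to 262). For all 3 classes the intervals of the genotypes overlapped.

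Genes whose levels ran most nearly parallel to Chd1 were ranked by Pearson's r of log2(CPM + 1) over the 24 sums of class and mouse, among 6205 genes with a mean of at least 20 CPM. The 5 highest were Sik1 (r = 0.89), a salt-inducible kinase; Atg12 (0.88), an autophagy conjugation protein; Stk11 (0.87), the LKB1 kinase; Gatad2a (0.87), a NuRD subunit; and Zc3h7a (0.87), a zinc finger protein. Of the family, Chd2 was nearest (0.80, rank 56), followed by Chd7 (0.72), and Chd9 ran opposite (-0.43). The 24 sums share 4 mice and 6 classes, so these are descriptions.

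No tested gene around Chd1 had an estimate as low as that of Chd1. The annotation places 40 other genes with a start within 1 Mb of that of Chd1, of which 22 are in the matrices and 15 were tested in the epithelium. EdgeR and DESeq2 called none, 9 had a positive and 6 a negative estimate, and the median was 0.07. Rgmb, a co-receptor for bone morphogenetic proteins and the nearest tested gene downstream, had 18.4 and 15.1 CPM in PSp mice, against 15.4 and 15.2 CPM in PCSp mice. Its groups overlapped. An unadjusted edgeR p under 0.05 was seen for Dll1, a Notch ligand (log2 fold change 0.30, edgeR adjusted p 0.637), and for Gm3448 (0.79, edgeR adjusted p 0.409), and both estimates were positive.

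**Figure D5:**
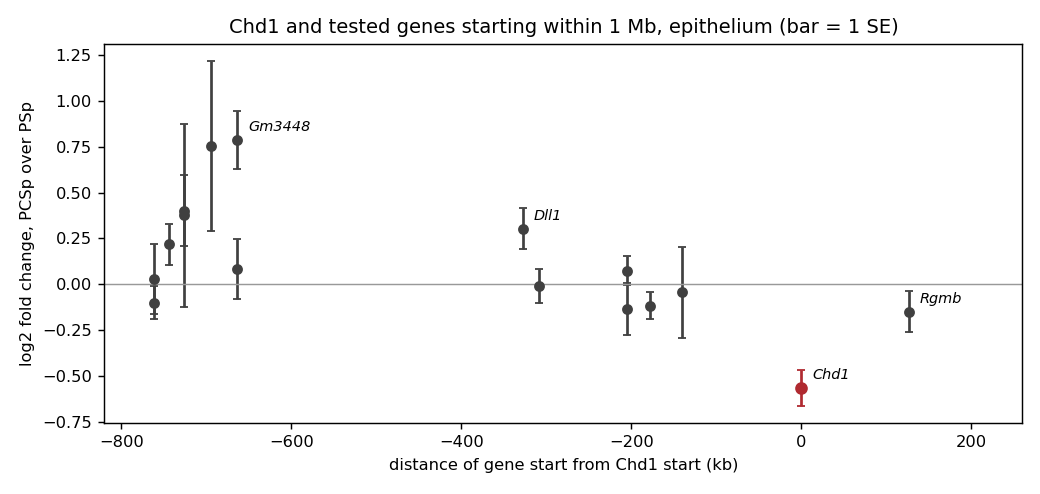
Log2 fold change in the epithelium, PCSp over PSp (y axis), of Chd1 (red) and the 15 tested genes that start within 1 Mb of it, by distance of their start from that of Chd1 in kb (x axis), with bars of 1 SE. Chd1 lies at -0.56, lower than each of its 15 neighbours.

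Partners and other remodellers were described by lists. EdgeR and DESeq2 each called 0 genes of any list in the epithelium, so the 3 genes of smallest p stand for each, and the median of all genes was -0.0072. At an unadjusted edgeR p under 0.05 stood 1 NuRD partner, 2 ISWI genes, 4 methyltransferase genes and 1 partner of CHD7 and CHD8. The other 3 lists had 0 such genes, and of all genes tested 7.67% stood there. Wdr5 is on both the methyltransferase list and the list for CHD7 and CHD8, and is counted in each. Of 12 NuRD partners, 5 had a positive and 7 a negative estimate, with a median of -0.02. Cdk2ap1, a small NuRD subunit, had 35.9 and 29.2 CPM in PSp mice, against 22.4 and 25.1 CPM in PCSp mice (log2 fold change -0.47, edgeR adjusted p 0.515). The deacetylase Hdac1 (-0.14) and the histone chaperone Rbbp7 (0.14) were nearer to 0. Of 11 ISWI genes, 8 had a positive and 3 a negative estimate, with a median of 0.08. The ISWI ATPase Smarca5 was at 209 and 184 CPM against 239 and 255 CPM (0.31, edgeR adjusted p 0.554). Its partner Cecr2 had 1.44 at levels of 0.61 to 1.78 CPM, and Baz1b, the WSTF subunit, had 0.14.

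Of 13 genes of the H3K4 methyltransferase complexes, which write the mark that CHD1 reads, 9 had a positive and 4 a negative estimate, with a median of 0.02. The methyltransferase Kmt2a had 113 and 103 CPM in PSp mice, against 135 and 135 CPM in PCSp mice (0.30, edgeR adjusted p 0.515). Its relatives Kmt2c (0.26) and Kmt2b (0.25) also had the PCSp pair above the PSp pair. Of 16 elongation factors and histone chaperones, 13 had a positive and 3 a negative estimate, with a median of 0.08. The chaperone subunits Cabin1 (0.20) and Ubn1 (0.17) and the elongation factor Supt6 (0.13) had the smallest p.

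The 18 SWI/SNF genes had a median of 0.04, with Arid1b (-0.19), Phf10 (0.22) and Smarca2 (0.21) of smallest p. Those of the 11 INO80 family genes had a median of -0.05, with Vps72 (-0.19), Znhit1 (-0.09) and Ruvbl2 (-0.08) of smallest p. Among 12 partners and targets of CHD7 and CHD8 the median was -0.04. Wdr5 (-0.28) and Ash2l (0.15), core subunits of the methyltransferase complexes, had the smallest p together with Lef1 (-1.79), a Wnt pathway factor at under 0.6 CPM in each mouse.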

How the data were processed

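UMI counts were deposited by the authors as 10x Genomics matrices of 4 libraries, made with Cell Ranger 6.1.2 on mm10 per the submitters' processing notes, with no normalization. The 9 members and all gene lists were chosen with earlier results of these data known. Cell filters were a minimum of 300 genes and 500 UMIs and a maximum of 20% mitochondrial UMIs. Scrublet's automatic threshold marked 0% of barcodes, so those of highest score were removed at 0.8% per 1000 barcodes (342, 422, 746 and 737). Cells were clustered in scanpy 1.11.5 (2000 variable genes without the members, 30 principal components, 15 neighbours, Leiden resolution 1) and named from marker lists; 277 shallow cells stayed unnamed. Epithelial cells were clustered again. Counts summed per mouse and class were tested with edgeR 4.0.16 (R 4.3.3; filterByExpr, TMM, two-sided quasi-likelihood F-test, Benjamini-Hochberg adjustment over all genes), with DESeq2 1.42.0 as an alternative; scripts were tested on simulated data. Standard errors come from the F statistic. The biological coefficient of variation in the epithelium was 16.2%, with 2 residual degrees of freedom. CPM uses the class total of the mouse.

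The labels name no batch or pairing of mice. RNA left by each of the other 5 tested classes was bounded as the gene's level there times the highest epithelial share of that class's 3 most abundant markers. Named genes were all members in every class, from each list those called or else the 3 of smallest p, the 5 nearest to Chd1 by correlation, and those starting within 1 Mb of Chd1 at an unadjusted p under 0.05. Gene positions are from GENCODE M21 (GRCm38), in which 32235 of 32285 gene IDs were found. Alternatives were DESeq2, no filter on low counts, library totals in place of TMM, each mouse left out, a stricter cell filter, doublets kept, Leiden resolution 2, deeper cells, equal cells per sub-cluster, thinned cells, PSp mice only and no mouse block. A shared allele and a further gene are not reported here.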

Additional observations from a re-analysis of the deposited data

Results flagged for a closer look

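The genotype difference of Chd1 in the epithelium differed from that in the other classes: the epithelium minus the mean of the other 5 classes was -0.89 on the log2 scale, with an edgeR adjusted p of 0.0111 in the test of the class by genotype interaction. The PCSp pair lay below the PSp pair in the epithelium and above it in each of the other 5 classes.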

How the results depend on the processing

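The Chd1 log2 fold change in the epithelium was negative in all 13 alternatives, from -0.66 to -0.39, and passed only in DESeq2 (-0.57, adjusted p 0.00243), where 1 CHD member in all was called. With each mouse left out it ran from -0.66 to -0.47. The number of genes called in the epithelium was 0 as reported, 189 with DESeq2, 56 with no filter on low counts, 7 with equal cells per sub-cluster, 1 with thinned cells and 0 to 14 with a mouse left out. The Chd1 contrast of epithelium minus other classes was -0.81 with doublets kept (adjusted p 0.101) and ran from -0.96 to -0.82 with a mouse left out, passing without either PSp mouse and not without either PCSp mouse. Its adjusted p over all alternatives ran from 7.15e-05 to 0.539. The Chd1 level in the epithelium minus other classes was -0.14 with library totals, -0.23 at Leiden resolution 2, 0.15 in the PSp mice alone and -0.47 to -0.10 with a mouse left out. Of 10 alternatives for this level contrast, 5 kept the call, 4 lost it and 1, the PSp mice alone, reversed the sign. Chd8 levels gave 0.05 with library totals. The genotype estimate of Chd8, near 0, turned negative in DESeq2 (-0.0011), with no filter (-0.0022), with the stricter cell filter (-0.0038), over deeper cells (-0.01), with equal cells per sub-cluster (-0.01) and without PSp mouse 1 (-0.02) or PCSp mouse 2 (-0.04), in a range up to 0.03 with a mouse left out. That of Chd7 turned positive with equal cells per sub-cluster (0.01) and thinned cells (0.13). The cause of these changes was not tested. No genotype estimate of the other 6 members in the epithelium, or of Chd1 in the 5 other tested classes, changed sign or passed. Over the alternatives Chd1 ran from 0.17 to 0.42 in neutrophils, 0.19 to 0.58 in macrophages and monocytes, 0.11 to 0.47 in fibroblasts, 0.05 to 0.19 in endothelial cells and 0.39 to 0.50 in T/NK cells. In basal-like cells Chd1 passed with DESeq2 (-0.54, adjusted p 0.018). No paired analysis was possible because the labels pair no mice, and the numbers 1 and 2 used here only name a mouse within its genotype; the contrasts between classes already hold the mouse as a block, and without it the Chd1 level contrast was -0.28. Depth limits Chd1l most: the 5 other tested classes held 31 to 118 UMIs of it.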
